A study of Glycine max with 12 samples.

Results

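The comparison described here set infested aphid-resistant soybean leaves (RA) against infested aphid-susceptible leaves (SA). Its members were chosen by sample title alone, with no measured value, and comprise 6 of the 12 arrays of the series, 3 RA and 3 SA. R plants were the aphid-resistant cultivar, named LD05-16060 in the sample labels, which carries the Rag1 aphid resistance gene. S plants were the related aphid-susceptible cultivar SD01-76R. The infested plants of both cultivars received 30 wingless soybean aphids each (Aphis glycines, biotype 1, which Rag1 controls), were covered with nets and were harvested after 21 days. Each array held RNA from the third trifoliate leaves of a pair of plants, from which aphids had been washed and rubbed off. Uninfested R plants (RC) and uninfested S plants (SC), with 3 arrays each, were handled in the same way without aphids. Infested plants of both cultivars stood on the same side of the growth chamber, and uninfested plants on the other side. Each cultivar was a single line, so a difference between R and S plants can come from any locus that differs between them. S plants carried many more aphids than R plants at harvest, so the cultivar and the aphid load cannot be told apart in the infested leaves. In whole leaves, fewer cells of a type and less RNA per cell cannot be told apart either.

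Soybean aphids feed from the phloem and can colonize susceptible leaves for weeks. Plants recognize attack through receptors and kinases, pass the signal through calcium, mitogen-activated protein kinases and the hormones salicylic acid, jasmonic acid and ethylene, and change transcription through families such as the WRKY, NAC, MYB and AP2/ERF factors. Legumes also make isoflavonoids and triterpene saponins as defense compounds. Rag1 is a dominant resistance locus on soybean chromosome 7 that limits colonization by some aphid biotypes.

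Leaf RNA was hybridized to the Affymetrix Soybean Genome Array. There, several short probes for 1 transcript form a probe set. Whether the probes match the sequences of both cultivars equally was not tested. A signal difference between R and S plants may therefore not be one of transcript level alone. Values are log2 signals after quantile normalization over 37593 soybean probe sets, and the number of arrays limits the precision. Arrays of 1 group correlated at 0.957 to 0.980 over all soybean probe sets. SA replicate 1 stood apart, with a mean correlation of 0.929 with the other 11 arrays, and SA replicate 3 had the lowest 3′ minus 5′ log2 signal of the actin control probe sets, 2.22, against 3.10 to 3.42 in RA arrays. Each main count is therefore also given without single arrays. Photosynthesis genes, which define leaf tissue, were high in all infested arrays, with mean levels of 9.83 to 10.06 in RA and 9.71 to 9.86 in SA for 19 genes, and 1 of the 19 lay at the control level in each group. Nodule markers averaged 5.79 to 5.96 in RA and 5.82 to 5.96 in SA over 16 genes, and seed markers 5.32 to 5.37 in RA and 5.38 to 5.48 in SA over 13 genes, near the level of the 60 control probe sets, which was 5.39 to 5.42 by group. Of the nodule markers 8 in RA and 5 in SA lay at or below the control level, as did 10 and 6 of the seed markers. No gene of these 3 lists passed an adjusted p of 0.05, and at an unadjusted p under 0.05 there were 3 photosynthesis genes higher and 1 seed marker lower in RA. With the replicate number as a block, 1 photosynthesis gene was higher at an adjusted p under 0.05.

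Infested R leaves differed from infested S leaves mainly through transcripts that were lower in R plants. The study's cutoffs require a fold of 2 or more, a p no larger than 1e-04 and a q by Storey's method no larger than 0.04. At these cutoffs 311 probe sets were called between RA and SA, which is 0.827% of those tested. Of these 37 were higher in RA (0.0984%) and 274 were lower (0.729%). On the values as deposited, without scaling between arrays, the split was 54 higher and 130 lower. A Benjamini-Hochberg adjusted p under 0.05 in limma was reached by 264 probe sets higher in RA (0.702%) and 862 lower (2.29%). An unadjusted p under 0.05 was found for 7.68% (higher) and 7.62% (lower) of all probe sets, the shares beside which the unadjusted counts of single gene groups below can be read. Below, "rose" and "fell" are used of infested R relative to infested S leaves at this second threshold. With the replicate number as a block, 680 probe sets were called, 60 higher and 620 lower, and 708 rose (1.88%) and 1675 fell (4.46%). The count was 139 without RA replicate 1, 148 without RA replicate 3 and 170 without SA replicate 1. All 311 kept their sign in each of these fits. Their arrays do not overlap, which leaves little room for a reversal, so the kept sign is no separate support.

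The levels of the 311 calls by array are given as a description, because the RA and SA arrays were used to make the calls. For the 274 probe sets called lower, the median level was 6.61, 7.18 and 6.63 in the 3 RA arrays, against 9.55, 8.87 and 8.74 in the 3 SA arrays. In uninfested leaves the same probe sets had medians of 6.46, 6.42 and 6.27 in RC and of 7.12, 6.91 and 6.56 in SC. RA replicate 2 was the highest RA array for 186 of the 274 probe sets, and SA replicate 1 was the highest SA array for 215. For the 37 probe sets called higher, the medians were 8.82, 8.73 and 8.69 in RA, against 6.55, 7.04 and 6.98 in SA. Their uninfested medians were 8.82, 8.91 and 8.73 in RC, against 8.09, 8.05 and 7.91 in SC. The RA and SA arrays did not overlap for any of the 311, which the cutoffs on these same arrays made likely, so it is no separate support. Over all probe sets, the share without overlap was 9.55% (higher) and 8.36% (lower). An RA mean at or below the control level was found for 24 of the 274 probe sets called lower, and the size of those differences is uncertain for that reason. Of the 311 probe sets, 192 were assigned to 171 genes here, and 20 genes had more than 1 called probe set, all 20 with their called probe sets in 1 direction.

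Uninfested leaves give a separate view of the cultivars, because RC and SC share no array with RA and SA, although all 12 arrays share the normalization and the estimate of the spread. Between RC and SC, 28 probe sets were called (0.0745%), 9 higher (0.0239%) and 19 lower (0.0505%) in R plants, and 50 with the replicate block. Over all probe sets, the arrays of RC and SC did not overlap for 3.94% (higher) and 3.56% (lower). All 28 had the same sign between RA and SA, and 24 were called there too, 7 higher and 17 lower. The count of uninfested calls was 14 without RC replicate 1, 10 without RC replicate 2, 12 without RC replicate 3 and 13 without SC replicate 1. Most probe sets called in infested leaves showed no difference of that size in uninfested leaves. They were chosen for a large difference between RA and SA, and that choice alone favors a smaller difference between RC and SC. Of the 274 probe sets called lower in RA, 190 lay within 0.5 log2 of no difference between RC and SC, and their median difference was -1.91 between RA and SA and -0.30 between RC and SC. Of the 37 called higher, 16 lay within 0.5 log2 between RC and SC, and the medians were 1.55 in infested and 0.64 in uninfested leaves. The sign was nevertheless shared by 263 of the 311 (84.6%), against 56.4% of all soybean probe sets.

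The test of the difference between the 2 cultivar differences was passed by few single probe sets. A call in infested leaves without one in uninfested leaves is not such a test. At an adjusted p under 0.05 in limma, 3 probe sets were more negative between RA and SA than between RC and SC (0.00798% of those tested) and none was more positive. At an unadjusted p under 0.05, 1165 probe sets were more positive and 1435 more negative. With the replicate block 67 probe sets passed, 7 more positive and 60 more negative, of which 52 were among the 311 called. The adjusted p without and with the block was 0.053 and 0.017 for the DREB1D-related Glyma.16G199000, 0.079 and 0.018 for the calmodulin-like LOC100526852, 0.1 and 0.017 for the ethylene synthesis gene ACS1, and 0.079 and 0.024 for Sali3-2 (LOC100805579). The number called at the study's cutoffs was 2 with all 12 arrays (0.00532%), 98 without RA replicate 2, 33 without SA replicate 2, 29 without SA replicate 3, 6 without SC replicate 1 and 1 without SA replicate 1. It was 0 without RA replicate 1, RA replicate 3 or any single RC array, and without SC replicate 2 or SC replicate 3.

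**Figure D1:**
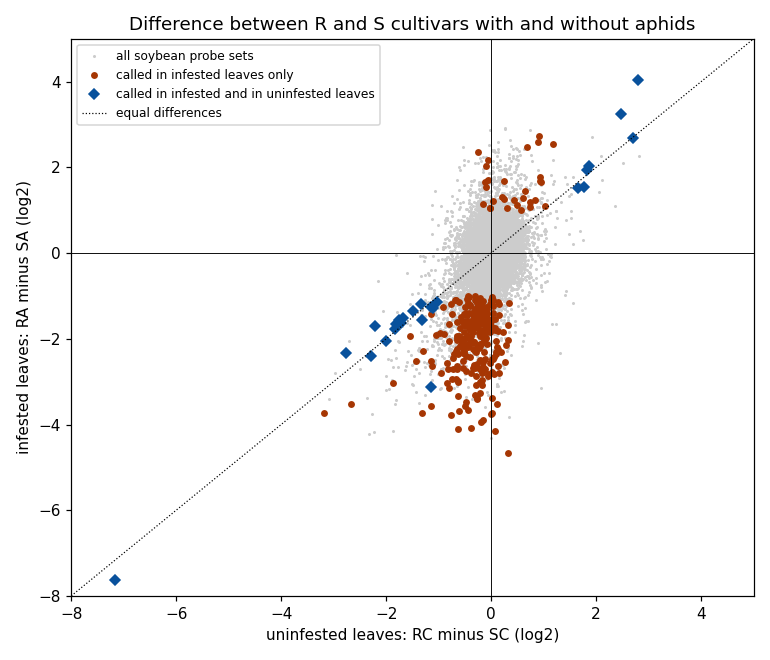
Each point is a soybean probe set, with the log2 difference between uninfested cultivars (RC minus SC) on the horizontal axis and between infested cultivars (RA minus SA) on the vertical axis. The 24 blue diamonds, called in both, mostly lie along the diagonal, while the remaining called probe sets in red lie mostly near 0 on the horizontal axis, with 274 of all 311 called lower in RA.

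Among the probe sets that differed with and without aphids, the ribonuclease H transcript LOC100526921 on chromosome 2 stood farthest out. Ribonuclease H cleaves the RNA strand of RNA-DNA hybrids. Its log2 signal was 5.49, 5.46 and 5.20 in RA leaves, against 12.96, 13.001 and 13.06 in SA leaves. It was 5.26, 5.40 and 5.27 in RC leaves, against 12.61, 12.32 and 12.53 in SC leaves. All 6 R arrays lay near the level of the control probe sets and all 6 S arrays far above it, whether or not aphids were present. A lower transcript level and a poorer match of the probes in R plants cannot be told apart here. The measured fold was 197 between SA and RA (log2 difference -7.62, SE 0.13, adjusted p = 1.71e-11 in limma), and its size rests on a group at the control level.

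Several defense-related and chaperone transcripts were lower in R plants by a similar amount in both conditions. Glyma.13G194900, similar to the candidate resistance protein KR1, a receptor of the nucleotide-binding leucine-rich repeat class, had signals of 5.60, 6.39 and 6.02 in RA leaves, against 7.97, 8.53 and 8.72 in SA leaves. The arrays did not overlap, and the difference was -2.41 (SE 0.24, adjusted p = 0.000925 in limma) with aphids and -2.30 without. A second probe set of the same gene gave -1.64 with aphids and -1.72 without. The DNAJ heat shock protein Glyma.13G200800, a co-chaperone, read 6.23, 6.16 and 6.50 in RA leaves, against 8.20, 8.74 and 8.95 in SA leaves. Its difference was -2.33 in infested and -2.77 in uninfested leaves. The Ser/Thr protein kinase Glyma.13G166100 differed by -2.04 and -2.01, the amino acid decarboxylase-like Glyma.08G076400 by -1.70 and -2.21, and the type 2 metallothionein MET2, a metal-binding protein, by -1.65 and -1.82. For Glyma.08G076400 and for the second KR1-like probe set the RA arrays were at the control level.

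Other transcripts lower in R plants in both conditions included Glyma.07G070900, which has no description here (-1.77 infested and -1.84 uninfested). The zinc finger protein Glyma.07G134400, similar to a splicing factor, differed by -1.51 and -1.69. The glycosyl hydrolase family 16 protein Glyma.07G078700, of an enzyme family that includes cell wall xyloglucan enzymes, differed by -1.18 and -1.34. LOC100527650 on chromosome 2 (-1.56 and -1.76) and LOC100527538 on chromosome 13 (-1.36 and -1.48) belonged to the same set and lay at the control level in RA leaves.

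The auxin-repressed protein-like transcript Glyma.07G043000 was lower in R plants in both conditions but by unequal amounts. It read 6.15, 6.49 and 6.52 in RA leaves, against 9.38, 9.39 and 9.76 in SA leaves. In uninfested leaves it read 5.89, 6.08 and 6.16 in RC, against 7.23, 7.12 and 7.21 in SC. The arrays of the cultivars did not overlap in either condition. The difference was -3.12 with aphids (SE 0.15, adjusted p = 2.07e-06) and -1.15 without (adjusted p = 0.014), and the difference between these, -1.98, had an adjusted p of 0.0356 in limma.

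Transcripts higher in R plants with and without aphids encoded lipid-related enzymes, a transporter and a transcription factor. The thioesterase Glyma.07G075400, of a family that releases acyl groups from thioesters, had signals of 9.01, 8.87 and 8.95 in RA leaves, against 6.36, 6.22 and 6.20 in SA leaves. Its difference of 2.68 (SE 0.14, adjusted p = 2.37e-06 in limma) was matched by 2.70 in uninfested leaves. The acyl-CoA thioesterase Glyma.03G009800 differed by 1.53 and 1.77, and Glyma.02G093500, annotated as a phospholipase D, which splits membrane phospholipids to phosphatidic acid, by 1.53 and 1.66. The R and S arrays of these 3 genes did not overlap in either condition. LOC100812666 on chromosome 2, with no description here, had the largest rise of all called probe sets, with 11.42, 10.43 and 11.13 in RA leaves, against 6.27, 7.53 and 7.05 in SA leaves. Its difference was 4.04 with aphids (SE 0.32, adjusted p = 0.000165) and 2.80 without. Glyma.17G230300 differed by 3.24 and 2.48, the transcription factor MYB139 by 2.03 and 1.87, and Glyma.07G073700, similar to the KEA1 potassium and proton antiporter, by 1.93 and 1.82. Each infested difference in this paragraph had an adjusted p under 0.05 with any single array left out.

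**Figure D2:**
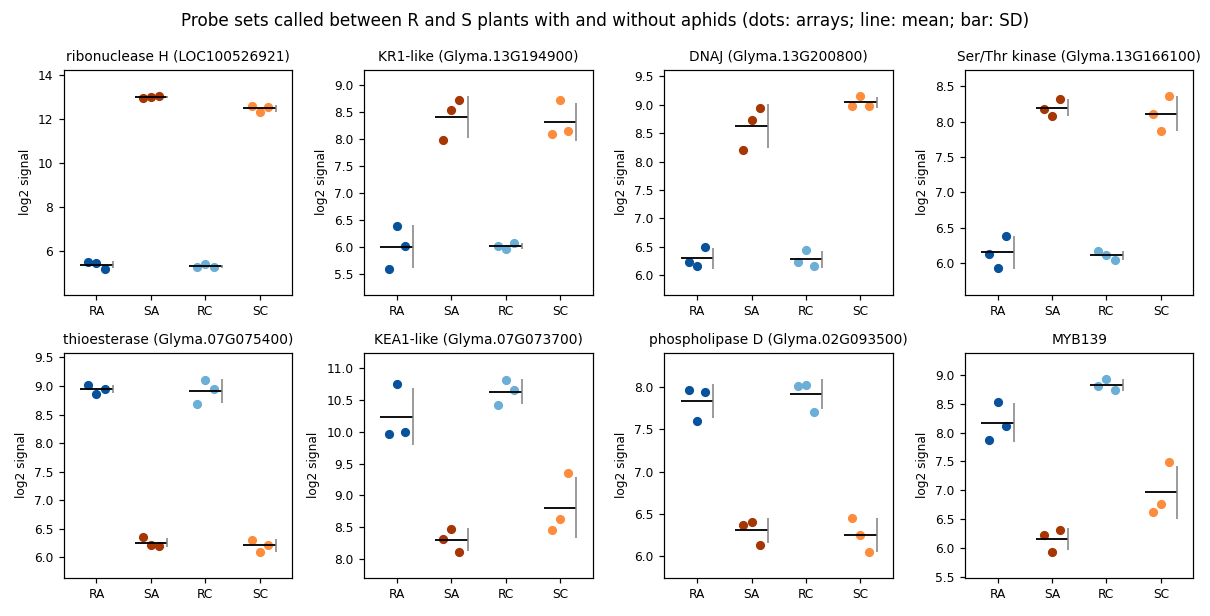
Log2 signal of 8 probe sets called between R and S plants with and without aphids, with 1 dot per array, the mean as a line and the SD as a bar, in RA, SA, RC and SC. In every panel the R and S arrays separate in both conditions, and ribonuclease H lies near the control level in all 6 R arrays, with 5.20 to 5.49 in RA, against 12.96 to 13.06 in SA.

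Among transcripts called in infested leaves and not in uninfested ones, AP2-type transcription factors, which bind promoters in stress and hormone responses, were among the largest falls. Glyma.16G199000, related to Arabidopsis DREB1D, a dehydration and cold response regulator, read 4.85, 6.67 and 5.15 in RA leaves, against 11.19, 9.88 and 9.55 in SA leaves. In uninfested leaves it read 4.82, 5.37 and 4.70 in RC, against 4.65, 4.70 and 4.58 in SC, which is below the control level in every array. All SA arrays therefore stood above all others, and RA replicate 2 was the highest RA array. The difference was -4.65 (SE 0.46, adjusted p = 0.000838 in limma), or 25.2-fold, and 0.32 in uninfested leaves. Glyma.05G049900, a dehydration-responsive element binding protein, had 5.21, 7.77 and 6.17 in RA, against 10.84, 10.92 and 9.85 in SA, a difference of -4.15. Glyma.02G132500, related to Arabidopsis RRTF1, a factor induced by redox stress, had 4.70, 6.27 and 4.71 in RA leaves, against 9.86, 9.05 and 7.98 in SA leaves. Its difference of -3.74 (adjusted p = 0.00195) compared with 0.02 in uninfested leaves, and its size is uncertain because the RA mean was at the control level. In all of these the second RA array was the highest of its group.

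Of 13 AP2/ERF genes with a symbol, 2 fell (15.4%, against 2.29% of all probe sets) and none rose, and their median difference was 0.01. At an unadjusted p under 0.05, 1 was higher. DREB1-like on chromosome 9 fell by 3.83 and RAV, a factor with AP2 and B3 domains, by 1.91. Neither passed without RA replicate 1, RA replicate 3 or SA replicate 1.

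WRKY factors, which bind W-box promoter elements and are known regulators of immune transcription, were lower in infested R leaves in many members. Of 52 WRKY genes, with 1 probe set each, 15 fell (28.8%, against 2.29% of all probe sets) and none rose, although 2 were higher at an unadjusted p under 0.05. Their median difference was -0.88 in infested and -0.10 in uninfested leaves. WRKY17 read 7.02, 7.47 and 7.06 in RA leaves, against 10.71, 9.30 and 9.60 in SA leaves. WRKY5, an ortholog of Arabidopsis WRKY33, a regulator of camalexin and of defense to necrotrophs there, read 5.80, 7.19 and 5.70 in RA leaves, against 9.53, 8.42 and 7.996 in SA leaves. Both sets of arrays were apart, with differences of -2.69 (SE 0.39, adjusted p = 0.00443) and -2.42 (SE 0.40, adjusted p = 0.00851) in limma. WRKY58, a gene of high signal, had 10.11, 10.41 and 10.68 in RA, against 12.55, 12.20 and 12.26 in SA (difference -1.94). These 3 were the called members.

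Other WRKY falls depended on single arrays. WRKY46 fell by 3.41, WRKY12 by 3.06, WRKY43 by 2.39 and WRKY34 by 2.18, and in each the second RA array was the highest of its group, for WRKY46 at 9.50 beside 6.39 and 6.46. None of these 4 passed without RA replicate 1, RA replicate 3 or SA replicate 1, nor did WRKY43 without SA replicate 3. The number of WRKY genes that fell was 3 without RA replicate 1, 3 without RA replicate 3, 3 without SA replicate 1, and 10 to 17 without any other array. With the replicate block it was 21.

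The remaining transcription factor families changed in fewer members. Of 65 MYB genes, with 1 probe set each, 5 fell (7.69%, against 2.29% of all probe sets) and none rose, with a median difference of 0.01. MYB139 of this list was nevertheless called higher, at 2.03 (adjusted p = 0.00142 in limma), in a probe set not used for that count. At an unadjusted p under 0.05, 5 were higher, and on the values as deposited 1 of the 65 fell. MYB29, the called member, had 5.89, 6.18 and 5.73 in RA leaves, against 9.33, 7.75 and 8.64 in SA leaves, a fall of 2.64 (adjusted p = 0.00281). The other 4 were MYB12A, MYB81, MYB179 and MYB133, with falls of 0.66 to 1.34, and 1 MYB gene fell without RA replicate 1, RA replicate 3 or SA replicate 1. Of 15 NAC genes 1 fell (6.67%), NAC6 by 2.17, which did not pass without RA replicate 3 or SA replicate 1. With the replicate block 3 fell. LOC100816770, a NAC gene outside that list, had 7.62, 7.77 and 7.69 in RA, against 10.997, 9.88 and 10.34 in SA, and was called at -2.71. Of 61 bZIP genes none passed, and at an unadjusted p under 0.05 there were 8 higher and 3 lower in RA. With the replicate block 1 of the 61 rose and 2 fell, and without SA replicate 2 the number that rose was 2.

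Genes of calcium and kinase signaling were among the called falls. The calmodulin-like LOC100526852, related to Arabidopsis CML38, a calcium sensor induced by wounding, read 6.29, 7.50 and 6.56 in RA leaves, against 10.10, 9.92 and 9.56 in SA leaves. Its difference was -3.08 (SE 0.30, adjusted p = 0.000712 in limma) in infested and -0.28 in uninfested leaves, and the groups did not overlap. Of 10 calmodulins and calcium-dependent kinases 2 fell (20%, against 2.29% of all probe sets), SCAM-4 by 1.74 and SCAM-5 by 0.66. None rose or was higher at an unadjusted p under 0.05. A second SCAM-4 probe set had 5.86, 5.61 and 5.99 in RA, against 8.21, 7.40 and 7.93 in SA (difference -2.03). SCAM-5 did not pass without RA replicate 1, RA replicate 3 or SA replicate 1, and its RA arrays were at the control level. The first SCAM-4 probe set did not pass without RA replicate 3 or SA replicate 1.

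A probe set similar to mitogen-activated protein kinase 1, of a kinase class that relays receptor signals, and not assigned to a gene here had 9.12, 10.37 and 9.26 in RA leaves, against 12.02, 11.85 and 11.11 in SA leaves. Its difference was -2.08 (SE 0.33, adjusted p = 0.00648) and -0.14 in uninfested leaves. Glyma.07G163200, related to the extra-large G protein XLG2 that acts in immunity in Arabidopsis, differed by -2.54, and LOC100808383, an ortholog of the Arabidopsis kinase PTI1-4, by -2.57. SIK1, the 1 of 17 receptor kinases that fell (5.88%, against 2.29% of all probe sets), differed by -2.15. It did not pass without RA replicate 3 or SA replicate 1. None of the 17 rose, and 2 were higher at an unadjusted p under 0.05. Without SA replicate 2, 2 rose, and with the replicate block 2 rose and 2 fell. Outside that list, the stress-induced receptor-like kinase LOC100305358 was called at -2.51 (adjusted p = 0.00156 in limma) and differed by -1.44 in uninfested leaves. A protein kinase probe set without a gene here was called at -3.03 (adjusted p = 0.00284), against -1.87 in uninfested leaves. Neither uninfested difference passed without the replicate block. The receptor kinase LOC100807707 was called higher, at 1.65.

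Of 19 immune signaling genes 1 fell and 1 rose (5.26% each, against 2.29% and 0.702% of all probe sets), and the median difference was -0.24. NDR1b, of a membrane protein family known in Arabidopsis for roles in disease resistance signaling, fell by 1.84, and VAMP721D, a vesicle SNARE, rose by 0.76. NDR1b did not pass without RA replicate 1, RA replicate 3 or SA replicate 1, and VAMP721D passed only without SA replicate 3, RC replicate 1 or SC replicate 2. The number of the 19 that fell was 5 with the replicate block, 3 without SA replicate 2, and 2 without RA replicate 2 or SC replicate 1, and none passed on the values as deposited. Outside that list, 2 related probe sets were called lower. Glyma.03G201100 read 7.56, 8.30 and 7.18 in RA leaves, against 11.53, 9.82 and 10.02 in SA leaves (difference -2.78, adjusted p = 0.00728 in limma). The Hin1-like LOC100793187 differed by -2.75 and did not pass without RA replicate 1, RA replicate 3 or SA replicate 1. Both are orthologs of Arabidopsis NHL10.

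Hormone-related genes gave mixed directions. Glyma.08G044400, an ortholog of Arabidopsis SARD1, a transcriptional activator of salicylic acid synthesis, had 9.02, 9.02 and 8.65 in RA leaves, against 11.04, 10.91 and 10.53 in SA leaves. It differed by -1.93 (SE 0.30, adjusted p = 0.00648) and by -0.64 in uninfested leaves. The ACC synthase gene ACS1, which acts at the committed step of ethylene synthesis, read 5.21, 6.25 and 4.95 in RA, against 7.79, 8.09 and 7.44 in SA. This probe set differed by -2.30 (adjusted p = 0.00237) and passed with any single array left out. ACS1 was the 1 of 4 ethylene genes that fell (25%, against 2.29% of all probe sets). Its probe set with the highest level, used for that count, differed by -2.06 (adjusted p = 0.00228). None of the 4 rose, and 1 was higher at an unadjusted p under 0.05. The glutaredoxin Glyma.13G293700, related to Arabidopsis GRX480, which links salicylic and jasmonic acid signaling there, differed by -2.70, with no overlap of 6.20, 6.08 and 6.52 in RA and 9.80, 8.14 and 8.96 in SA.

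Lipoxygenases and jasmonate synthesis genes, which act on fatty acids, were mostly on the positive side. Of 15 such genes 1 rose (6.67%, against 0.702% of all probe sets), none fell, and 7 were higher at an unadjusted p under 0.05. The median difference was 0.43 in infested and 0.10 in uninfested leaves. VLXC, a vegetative lipoxygenase, had 11.17, 11.36 and 10.98 in RA leaves, against 8.40, 10.54 and 8.78 in SA leaves. SA replicate 2 lay far above the other SA arrays, and the difference was 1.93 (SE 0.41, adjusted p = 0.0285 in limma). VLXC did not pass without any single RA array, without SA replicate 1 or without SA replicate 3, and without SA replicate 2 the number of the 15 genes that rose was 6. With the replicate block 1 rose and 1 fell, the allene oxide cyclase gene AOC4 (-1.06).

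Pathogenesis-related proteins, secreted proteins that accumulate in defense, had the lowest median among the lists in infested R leaves, -1.79, against -0.76 in uninfested leaves. Of 10 genes 3 fell (30%, against 2.29% of all probe sets), the osmotin-like OLPa by 3.06 and OLPb by 2.50 and the polygalacturonase-inhibiting protein PGIP by 1.02. At an unadjusted p under 0.05, 8 were lower. None rose, and 1 was higher at an unadjusted p under 0.05, DRR1. It read 12.00, 11.69 and 11.23 in RA leaves, against 8.61, 11.11 and 9.66 in SA leaves, without overlap. Its difference of 1.84 had an adjusted p of 0.0909 without and 0.0749 with the replicate block in limma. PR1-7 read 8.33, 6.86 and 8.88 in RA leaves, against 12.09, 9.37 and 12.18 in SA leaves. In both groups the second array was the lowest, and the difference of -3.19 had an adjusted p of 0.106 without and 0.0021 with the replicate block. The acidic chitinase CHIA1 likewise differed by -2.96, with an adjusted p of 0.0839 without and 0.0071 with the block, and PR-10 by -2.12, with 0.0772 and 0.021. With the block 8 of the 10 fell (80%, against 4.46% of all probe sets). Without it, 0 fell when RA replicate 1, RA replicate 3 or SA replicate 1 was left out, where 8 of the 10 had been lower at an unadjusted p under 0.05 with all arrays, and 6 fell without SA replicate 2. OLPa also did not pass without RA replicate 2, SA replicate 3 or any single RC array, and PGIP not without SA replicate 2.

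Transcripts named after induction by syringolide, a bacterial elicitor that acts on soybean, were lower as well. B13-1-1 on chromosome 8 read 6.08, 7.19 and 6.37 in RA leaves, against 11.14, 9.14 and 9.34 in SA leaves, a difference of -3.33 (SE 0.47, adjusted p = 0.00394 in limma). Glyma.06G020800, syringolide-induced protein 14-1-1, differed by -3.90, with RA replicate 2 at 8.24 beside 5.47 and 5.86, and did not pass without RA replicate 3 or SA replicate 1. The class I small heat shock protein Glyma.04G108500, a chaperone, had 5.72, 5.78 and 5.96 in RA, against 9.98, 8.45 and 9.18 in SA. It differed by -3.39 (adjusted p = 0.00156) in infested and by -0.26 in uninfested leaves, and its groups did not overlap.

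Entry enzymes of the phenylpropanoid pathway, which turns phenylalanine into lignin precursors, flavonoids and isoflavonoids, were mostly lower in infested R leaves, but few passed the test. Among 9 entry enzymes the median difference was -0.74 in infested and -0.36 in uninfested leaves. The gene 4CL, a 4-coumarate:CoA ligase, was the only one that rose (11.1%, against 0.702% of all probe sets), by 0.86. None fell, and 5 were lower at an unadjusted p under 0.05. With the replicate block 5 fell, among them 4CL2 (-1.43, adjusted p = 0.0929 without and 0.0035 with the block) and PAL2.1, a phenylalanine ammonia-lyase (-0.91, 0.0792 and 0.032). The rise of 4CL did not pass without RA replicate 1, RA replicate 3 or any single SA array. Glyma.11G198300, similar to 4-coumarate:CoA ligases, had 5.37, 7.12 and 5.70 in RA leaves, against 9.79, 10.37 and 8.17 in SA leaves. It was called at -3.38, and did not pass without RA replicate 1, RA replicate 3 or SA replicate 1.

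Chalcone synthase starts flavonoid and isoflavonoid synthesis, and its list held CHS8 and CHS1. CHS8 read 10.23, 9.41 and 9.78 in RA leaves, against 12.31, 11.11 and 11.82 in SA leaves, a difference of -1.94 with an adjusted p of 0.0469, or 0.0012 with the replicate block. The CHS1 probe set with the highest level differed by -0.61 and did not pass, while another CHS1 probe set read 5.74, 6.88 and 6.17 in RA leaves, against 8.79, 8.61 and 7.77 in SA leaves, and was called at -2.13 (adjusted p = 0.0096). The probe sets of CHS1 thus disagreed, and members of this gene family share sequence, so their signals may not be separate. CHS8 did not pass without any single RA array, SA replicate 1, SA replicate 3, RC replicate 3 or SC replicate 2, and the called CHS1 probe set not without RA replicate 1 or SA replicate 1.

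Isoflavonoid branch genes lead to daidzein, genistein and the glyceollin phytoalexins of soybean. Of 22 genes 2 fell (9.09%, against 2.29% of all probe sets), the isoflavone reductase IFR by 2.71 and the isoflavone hydroxylase CYP81E11 by 1.89. None rose, and 1 was higher at an unadjusted p under 0.05. The median was -0.43 in infested and -0.45 in uninfested leaves. IFR had 5.90, 6.44 and 6.02 in RA leaves, against 9.08, 8.16 and 9.24 in SA leaves, with a difference of -1.44 in uninfested leaves. Without RA replicate 1, RA replicate 3, SA replicate 1 or SA replicate 3 none of the 22 fell, where 5 were lower at an unadjusted p under 0.05 with all arrays. Without RA replicate 2, RC replicate 1, RC replicate 3 or SC replicate 3, 1 fell.

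Glyma.13G173600, an isoflavanone 4′-O-methyltransferase that methylates isoflavonoid precursors, was lower in R plants with and without aphids, although the uninfested difference passed the test only with the replicate block. It read 7.69, 6.86 and 7.66 in RA leaves, against 11.43, 10.09 and 11.90 in SA leaves, and 7.95, 6.31 and 6.73 in RC leaves, against 11.21, 10.39 and 8.94 in SC leaves. The groups did not overlap in either condition. The difference was -3.73 (SE 0.60, adjusted p = 0.00736 in limma) with aphids and -3.19 (adjusted p = 0.18, or 0.029 with the replicate block) without, and a second probe set gave -3.52 and -2.67 (the uninfested adjusted p being 0.35, or 0.073 with the block).

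In the flavonol and anthocyanin branch 1 of 9 genes rose (11.1%, against 0.702% of all probe sets), F3H, a flavanone 3-hydroxylase, and none fell. With the replicate block 1 fell (11.1%, against 4.46%). At an unadjusted p under 0.05, 2 were higher and 1 was lower, and the median difference was 0.12. F3H had 7.58, 7.60 and 7.65 in RA leaves, against 6.15, 7.01 and 6.72 in SA leaves, and 7.37, 8.15 and 7.46 in RC leaves, against 8.43, 8.36 and 8.49 in SC leaves. R plants were thus above S plants with aphids and below them without, by 0.98 (adjusted p = 0.0423) and -0.77. The test of the difference between these had an adjusted p of 0.15, or 0.042 with the replicate block. With 1 array left out, the rise passed only when that was SA replicate 2, RC replicate 1 or RC replicate 2.

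Glutathione S-transferases, which conjugate glutathione to reactive compounds, fell in 2 of 26 genes (7.69%, against 2.29% of all probe sets). None rose, and 0 were higher at an unadjusted p under 0.05. The tau class member GSTU42 had 6.78, 6.88 and 6.997 in RA leaves, against 12.11, 9.23 and 11.86 in SA leaves. SA replicate 2 was the lowest SA array but still above every RA array, and the difference was -4.18 (SE 0.78, adjusted p = 0.0151 in limma) with aphids and -2.24 without. GSTIR fell by 2.02. Neither passed without RA replicate 1, RA replicate 3 or SA replicate 1, GSTU42 also not without SA replicate 3, and 5 of the 26 fell with the replicate block.

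Secretion and cell wall genes were represented among the calls. The membrane SNAREs LOC100793323 and Glyma.05G023100, homologs of SNAP25, which fuse vesicles with the plasma membrane, differed by -2.10 and -2.03. LOC100793323 had 6.86, 7.25 and 7.32 in RA leaves, against 9.75, 8.89 and 9.09 in SA leaves, without overlap. The cellulose synthase-like Glyma.01G014000 differed by -2.87 and the xyloglucan endotransglycosylase Glyma.13G095100, which remodels wall polymers, by -2.47. In uninfested leaves these 4 differed by -0.40, -0.40, -0.07 and 0.01.

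The transcripts that rose in infested R leaves included a phosphatase, transporters and wall proteins. The purple acid phosphatase gene PAP25, similar to Arabidopsis PAP26, which releases phosphate from organic esters, was called by the 3 probe sets that carry its symbol, at 2.48, 2.58 and 2.74. The probe set with the largest difference had 11.49, 11.10 and 11.35 in RA leaves, against 7.96, 9.20 and 8.55 in SA leaves, and 12.02, 10.98 and 11.73 in RC leaves, against 11.35, 10.39 and 10.26 in SC leaves. SA leaves were therefore below the other 3 groups, and RA leaves were near RC leaves. The uninfested differences of the 3 probe sets were 0.68, 0.89 and 0.91. These 3 were assigned to Glyma.13G161900, and another probe set of that gene model was called at 1.77. The storage protein gene VSPA, 1 of the 5 genes of that list, overlapped between the groups, with 8.50, 11.14 and 7.62 in RA and 5.78, 9.31 and 6.93 in SA (adjusted p = 0.433).

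LOC100807959 on chromosome 7, of the chlorophyllase family that cleaves chlorophyll, read 10.04, 10.03 and 10.25 in RA leaves, against 6.93, 7.68 and 8.07 in SA leaves. Its difference was 2.55 (SE 0.32, adjusted p = 0.00241 in limma) in infested and 1.18 in uninfested leaves. LOC100779440, a calcium and proton exchanger on chromosome 7, read 10.31, 9.59 and 10.56 in RA, against 7.57, 8.25 and 8.11 in SA, a difference of 2.18 with aphids and -0.06 without. The fasciclin-like arabinogalactan protein Glyma.02G308700, a cell surface glycoprotein, differed by 2.35 and -0.25. Sali3-2 (LOC100805579), named for induction by aluminum, had 7.32, 7.09 and 7.12 in RA, against 5.09, 5.52 and 5.78 in SA, and differed by 1.71 and -0.05.

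Other called rises were the family 37 glycosyltransferase Glyma.07G022300, of a family that adds fucose to wall xyloglucan, at 1.55, and the STRUBBELIG-family receptor kinase LOC100807707, related to Arabidopsis SRF6, at 1.65. The nodulin-like LOC100807991 was called at 1.65 too, but not with the replicate block. LOC100807707 did not pass without SA replicate 1 and LOC100807991 not without RA replicate 3.

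**Figure D3:**
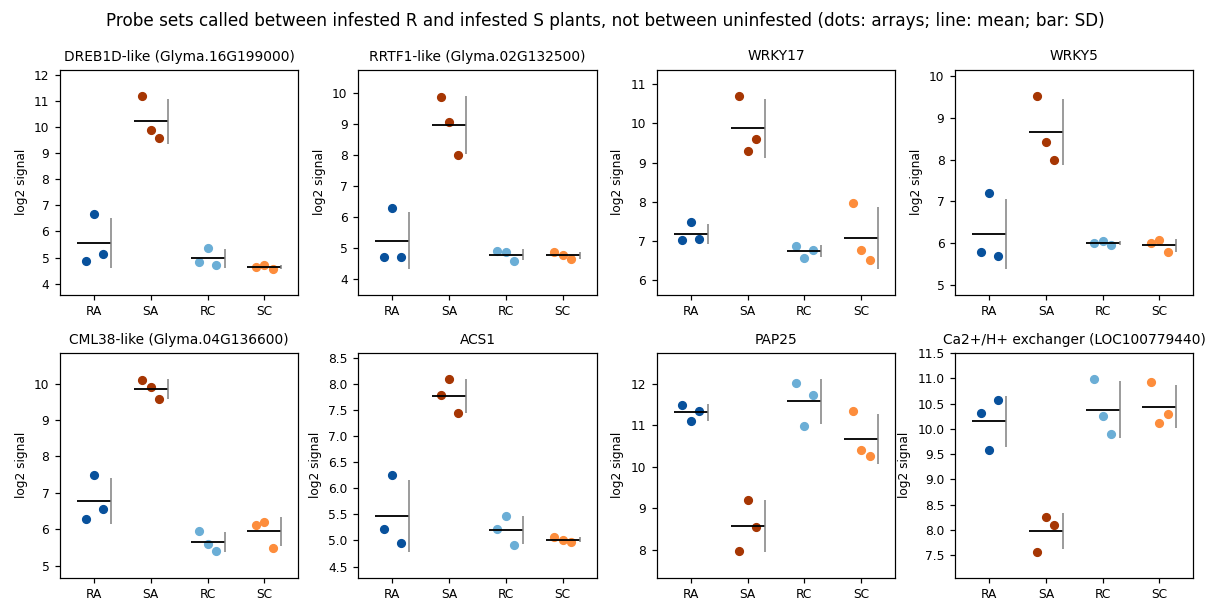
Log2 signal of 8 probe sets called between infested R and infested S plants and not between uninfested ones, with 1 dot per array, the mean as a line and the SD as a bar, in RA, SA, RC and SC. In the first 6 panels the SA arrays stand above the other groups (ACS1 at 7.44 to 8.09, against 4.95 to 6.25 in RA), and in the panels of PAP25 and the exchanger they stand below. None of the 8 passed the test of the difference between the infested and uninfested cultivar differences without the replicate block. With the block WRKY17, WRKY5, PAP25 and the exchanger did not pass either (adjusted p = 0.072, 0.090, 0.21 and 0.085 in limma).

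Ferritins, the iron storage proteins of plastids, were higher in R leaves in 3 of 4 genes, though 1 passed the test (25%, against 0.702% of all probe sets). SFERH-4 had 10.98, 11.13 and 10.16 in RA leaves, against 8.33, 9.56 and 8.89 in SA leaves, and rose by 1.83 (SE 0.36, adjusted p = 0.0176 in limma). In uninfested leaves it differed by 1.14, and it did not pass without RA replicate 1, SA replicate 1 or SA replicate 3. The probe set of gene H-1 with the highest level differed by 1.70 (adjusted p = 0.121, or 0.023 with the replicate block) with overlapping arrays. Another H-1 probe set rose by 1.62 (adjusted p = 0.0467) without overlap. SFERH-2 differed by 1.33 (adjusted p = 0.122, or 0.031 with the block) without overlap. With the block 3 of the 4 rose. SFERH-3 had 9.52, 9.21 and 9.72 in RA, against 9.28, 9.43 and 9.36 in SA, and the overlapping groups differed by 0.12. The list's median was 1.51 in infested and 1.32 in uninfested leaves.

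A ferritin outside that list, LOC547698 on chromosome 7, read 11.86, 11.13 and 9.99 in RA leaves, against 7.33, 9.36 and 8.17 in SA leaves. It rose by 2.71 (adjusted p = 0.0263) and differed by 1.93 in uninfested leaves. A second probe set of the same gene model, Glyma.07G155200, differed by 2.27 (adjusted p = 0.0517, or 0.0063 with the replicate block). LOC547698 did not pass without RA replicate 1, SA replicate 1 or SA replicate 3. In LOC547698 and H-1 the third RA array was the lowest of its group and the second SA array the highest.

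Soyasaponin synthesis genes, whose products are triterpene glycosides, were all on the positive side. Of 5 genes 2 rose (40%, against 0.702% of all probe sets), CYP93E1, the beta-amyrin 24-hydroxylase, by 2.40 and GT4 by 1.54. All 5 were higher at an unadjusted p under 0.05. The median was 2.14 in infested and 0.37 in uninfested leaves. CYP93E1 had 11.80, 11.70 and 10.89 in RA leaves, against 7.76, 10.63 and 8.80 in SA leaves. The soyasaponin glycosyltransferases SGT3 and SGT2 differed by 2.49 and 2.14 (adjusted p = 0.0755 and 0.0516, or 0.044 and 0.039 with the replicate block). In CYP93E1, SGT2, SGT3 and CYP72A67 the second SA array was the highest of its group, and for CYP72A67 it overlapped the RA arrays. Without SA replicate 2 all 5 rose, 4 with the replicate block, 3 without SC replicate 3 and 1 without RA replicate 2. Without RA replicate 1, RA replicate 3, SA replicate 1, SA replicate 3, any single RC array or SC replicate 2 the number was 0, against 5 at an unadjusted p under 0.05 with all arrays.

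Kunitz trypsin inhibitors, which block digestive proteases of herbivores, showed the same spread among SA arrays without passing the test. KTI-2 read 11.68, 11.27 and 10.42 in RA leaves, against 7.23, 9.96 and 8.92 in SA leaves (difference 2.42, adjusted p = 0.1 in limma), and KTI-3 differed by 2.27 (adjusted p = 0.0946). Their arrays did not overlap. Of 9 proteinase inhibitor genes none passed, and an unadjusted p under 0.05 was found for 2 that were higher and 1 that was lower. On the values as deposited 2 of the 9 rose, and without SA replicate 2, 2 rose and 1 fell.

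Aquaporins, the water channels, had a median difference of 0.17. Of 21 genes 1 rose (4.76%, against 0.702% of all probe sets), PIP1-10 by 0.72, and none fell. PIP1-10 read 11.99, 11.45 and 11.92 in RA leaves, against 10.86, 11.25 and 11.09 in SA leaves, and passed only without RA replicate 2, SA replicate 2 or SC replicate 3. The number of the 21 that rose was 3 without RA replicate 2 and 2 without SA replicate 2 or with the replicate block. PIP2-9 read 9.84, 8.21 and 9.30 in RA leaves, against 6.60, 7.23 and 7.83 in SA leaves, a difference of 1.90 with an adjusted p of 0.0925, or 0.036 with the replicate block. The sugar transporter gene SWEET17 and the asparagine synthetase gene AS2 differed by 2.23 and 2.30, but the second array was the lowest of the 3 RA and of the 3 SA arrays for SWEET17, and the lowest RA array for AS2 as well. Their adjusted p was 0.266 and 0.278, or 0.01 and 0.033 with the block. The SA mean of AS2 was at the control level, so the size of its difference is uncertain.

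In the other lists fewer genes moved. Of 35 late embryogenesis and seed maturation genes 1 fell (2.86%, against 2.29% of all probe sets), MAT1 by 1.40. It did not pass without RA replicate 3 or SA replicate 1. None passed among 18 genes of reactive oxygen metabolism, 16 of sugar and ion transport, 19 of nitrogen metabolism, 13 of the cell wall, 13 of phosphate use, 11 heat shock proteins, 10 heat shock factors and 8 sieve element occlusion genes. At an unadjusted p under 0.05, 2 oxygen metabolism genes were lower, 3 transport genes were higher and 1 lower, 1 nitrogen gene was higher and 1 lower, and 1 cell wall gene was lower. In the same count 2 phosphate genes were higher, 1 heat shock factor was higher and 2 were lower, and 0 heat shock proteins and 0 sieve element genes were counted in either direction. With the replicate block 2 transport genes (SWEET17 and SUT1) and 1 nitrogen gene (AS2) rose, and 2 oxygen metabolism genes (AOX3 and PRX4), 1 cell wall gene (UGD1) and 1 heat shock factor (HSF-01) fell.

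The scaling of the arrays also changed several counts. On the values as deposited the number that fell was 10 for WRKY, 2 for pathogenesis-related, 1 for isoflavonoid, 1 for calmodulin and calcium-dependent kinase genes and 0 for late embryogenesis genes. In the same fit 4 soyasaponin genes and 1 pathogenesis-related gene rose, and no phenylpropanoid entry or flavonol and anthocyanin gene did. With median centering 3 soyasaponin genes and no aquaporin or immune signaling gene rose, and 2 NAC genes and 1 oxygen metabolism gene fell.

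**Figure D4:**
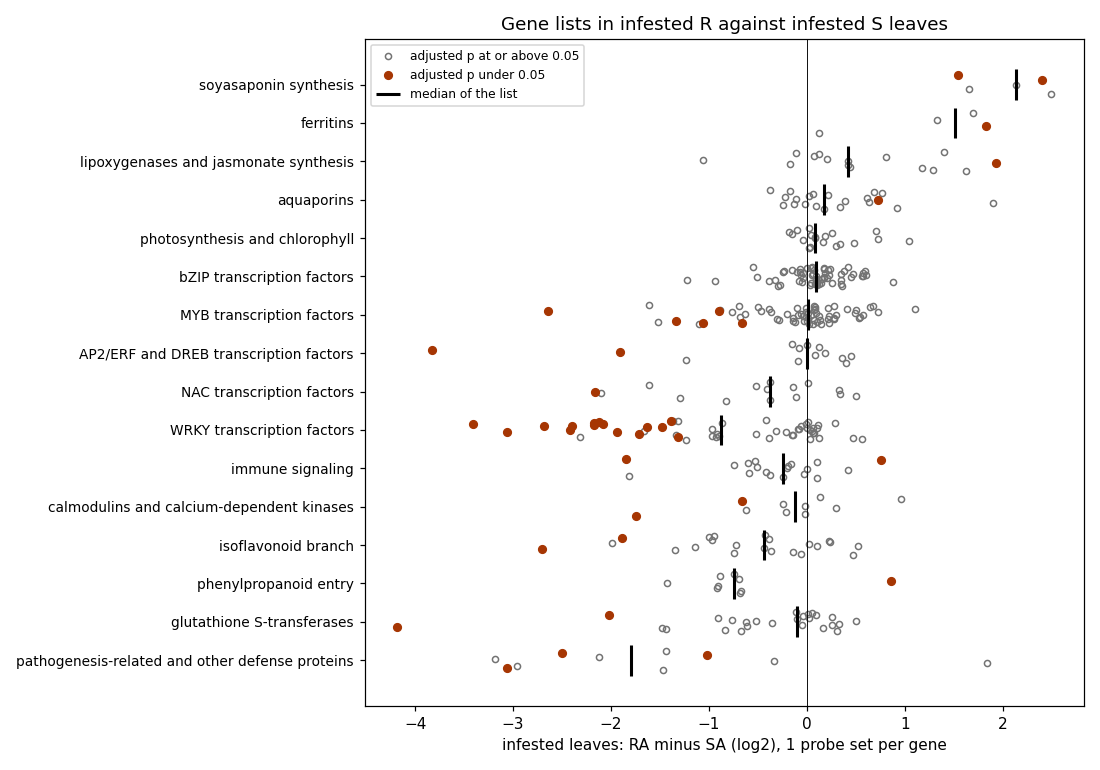
Log2 difference between infested R and infested S leaves (RA minus SA) for the genes of 16 lists, with 1 probe set per gene, filled where the limma adjusted p was under 0.05, and the median of each list as a black bar. The medians run from -1.79 for pathogenesis-related proteins to 2.14 for soyasaponin synthesis, and the WRKY list has 15 filled points, all below 0.

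The positions of the genes were described by chromosome, because Rag1 lies on chromosome 7. The 24 probe sets called with and without aphids stand for 23 genes or unplaced probe sets, of which 7 were on chromosome 7, 6 on chromosome 13, 4 on chromosome 2, 1 each on chromosomes 3, 8 and 17, and 3 unplaced. Of all 6010 placed genes on the array 5.06% were on chromosome 7, 7.64% on chromosome 13 and 5.79% on chromosome 2. These were placed by RefSeq symbol alone, but the 23 by the study's gene identifiers where these existed. The counts among the 23 are therefore not a like measure to these shares. The chromosome 7 genes lower in R plants were Glyma.07G043000, Glyma.07G070900, Glyma.07G078700, Glyma.07G134400 and MET2, and those higher were Glyma.07G073700 and Glyma.07G075400. Of the 71 placed genes that rose between SA and RA leaves, 10 were on chromosome 7 (14.1%). Of the 196 that fell, 14 were on chromosome 7 (7.14%) and 19 on chromosome 10 (9.69%). For some of these genes the symbol and the study's identifier name different chromosomes, as for MYB29 (10 and 20) and WRKY43 (3 and 19). The shares by symbol are therefore uncertain. They are descriptions without a test, and distances along the chromosome were not analysed here.

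**Figure D5:**
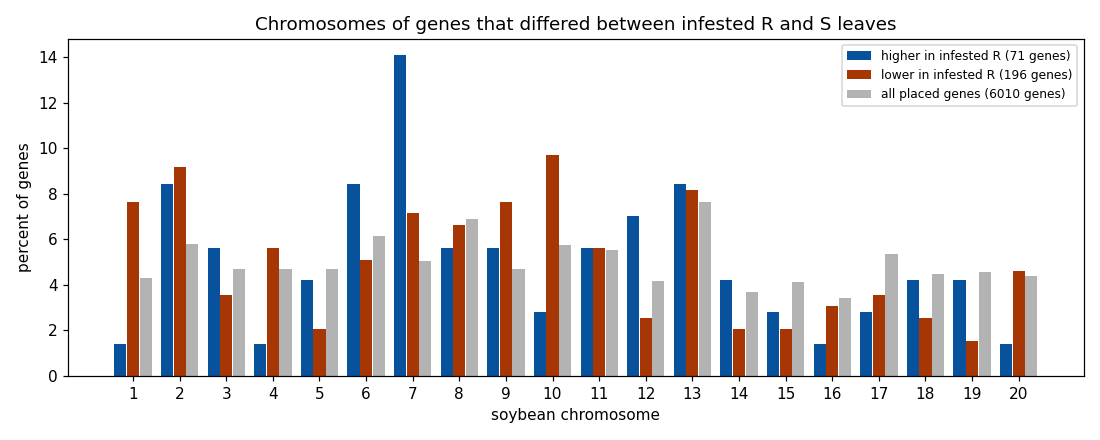
Percent of placed genes on each soybean chromosome, for the 71 genes higher in infested R leaves, the 196 genes lower in infested R leaves and all 6010 placed genes of the array (adjusted p under 0.05 in limma). As placed by RefSeq symbol, chromosome 7 holds 14.1% of the genes higher in infested R leaves and 5.06% of all placed genes.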

How the data were processed

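Trifoliate leaves were profiled on 12 Affymetrix Soybean Genome Arrays, 3 for each of 4 groups taken from the sample titles. The deposited values are log2 signals, 1 per probe set. The study's methods name GCRMA as the authors' normalization, and the labels list RMA, GCRMA and limma. However, 99.6% of the values are the log2 of a whole number (relative tolerance 1e-06), so no background correction or scaling is visible, and the 37593 soybean probe sets were quantile normalized over all 12 arrays. The table used holds no detection calls.

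1 mean per group was fitted in limma 3.58.1 (R 4.3.3) with empirical Bayes moderation and without a block. The methods describe complete blocks for plant positions in the chamber and, for the model of each transcript, name aphid, genotype and interaction effects. Group means were contrasted as RA minus SA, RC minus SC, and the difference of both. p-values were adjusted by the Benjamini-Hochberg method over all soybean probe sets. They measure the spread between pools of separate plants. The script was tested on simulated data. Deviations of same-numbered arrays from their group means correlated at 0.17, 0.30 and 0.42 between RA and SA (other numbers -0.33 to 0.05), and at 0.48, 0.38 and 0.29 between RC and SC. The replicate numbers were taken as pairs from these data. The block gives same-numbered arrays of all groups a shared effect, but such correlations between infested and uninfested arrays were not examined. Deviations within a group cancel, so positive correlations of same-numbered arrays push the others down, and the contrast between them is weak evidence of pairing. The fit with the replicate number as a block is printed mainly where an adjusted p crosses 0.05 or a count moves by more than 1.5 times. Calls at the study's cutoffs changed for further genes. Among those called only with the block were WRKY46, WRKY12, WRKY43, WRKY34, GSTU42, DREB1-like, OLPa, OLPb and NDR1b.

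Gene symbols came from GEO's platform annotation, updated through RefSeq (Glycine_max_v4.0), and further gene identifiers and descriptions from the study's supplementary annotation. Of the soybean probe sets 8905 had a gene. A list uses 1 probe set per gene, that with the highest mean level. Members and lists were chosen with earlier results of these data known. Named genes were the 20 largest rises and the 20 largest falls among the calls, up to 6 list members with the smallest p, genes the study names, and those called with and without aphids. The level of control probe sets is their median on the normalized scale, averaged by group. The authors' own fold changes and p-values were not used.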

Additional observations from a re-analysis of the deposited data

Results flagged for a closer look

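For 3 probe sets the difference between infested R and infested S leaves departed from that between uninfested R and uninfested S leaves at an adjusted p under 0.05 in limma. For Glyma.07G043000, the auxin-repressed protein-like transcript, the cultivar difference was -3.12 with aphids and -1.15 without, a change of -1.98 (adjusted p = 0.0356, or 0.0158 with the replicate block). For Glyma.15G142200, which has no description here, it was -3.74 and 0.0039, a change of -3.75 (adjusted p = 0.0401, or 0.0158 with the block). Its arrays read 7.10, 6.91 and 6.30 in RA leaves, against 10.35, 10.77 and 10.41 in SA leaves, and 4.97, 5.93 and 5.27 in RC leaves, against 6.04, 5.11 and 5.02 in SC leaves. For LOC100779018, a hypothetical protein, it was -2.63 and 0.14, a change of -2.76 (adjusted p = 0.0485, or 0.0177 with the block). Its arrays read 5.52, 5.80 and 5.83 in RA leaves, against 9.03, 7.87 and 8.13 in SA leaves, and 5.50, 5.70 and 5.64 in RC leaves, against 5.61, 5.53 and 5.27 in SC leaves. On the values as deposited none of the 3 passed (adjusted p = 0.312, 0.1505 and 0.312 in the order given). Without RA replicate 1 the adjusted p was 0.0666, 0.0666 and 0.145, and without RC replicate 3 it was 0.146 for each, and none of the 3 passed without RA replicate 3, RC replicate 1, RC replicate 2, SC replicate 2 or SC replicate 3 either. Groups of 3 arrays were not examined for outlying samples.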

How the results depend on the processing

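The count of probe sets called between infested R and infested S leaves (311) was 680 with the replicate block, 358 with median centering, 184 on the values as deposited, 222 after normexp with an offset of 50, 140 among probe sets above the median level, 176 with the 6 infested arrays alone and 235 with these and the block. It was 319 with trend and robust moderation, 80 without moderation, 1126 at an adjusted p under 0.05 with no fold and 1763 with a fold of 2 and p at or under 0.05. It was 139 to 447 with 1 array left out. All 311 kept their sign in each of these fits that held them, and 158 of 158 did above the median level. The 311 were called for large differences without overlap, which left little room for a reversal, so this is no separate support. The uninfested count (28) was 50 with the block, 14 as deposited, 13 above the median level, 10 without moderation, 166 at the fold and p alone and 10 to 29 with 1 array left out. The count for the difference between the comparisons (2) was 60 with the block, 0 as deposited, 0 above the median level, 1 without moderation, 1080 at the fold and p alone and 0 to 98 with 1 array left out. Of the named probe sets, 112 were followed through these alternatives. In the infested comparison 91 of them passed, 56 of these with any single array left out. None of the 112 values reversed its sign. Most were chosen by size or p on the same arrays, so this says little. The block, which pairs arrays by replicate number, brought 15 more past the threshold and lost none. The motifs of promoters were not searched. The cause of these shifts was not tested.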
